A study of Homo sapiens with 12 samples.

Results

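Signals of 8 genes of the epithelial to mesenchymal transition were followed across the 4 groups of an experiment on RCC4 cells: the transcription factors SNAI2, ZEB1 and TWIST1, the cadherins CDH1, CDH2, CDH6 and CDH11, and the intermediate filament gene VIM. The genes were chosen by name, with earlier results of these data known. Every probe set that the array annotation gives to 1 of them alone was taken. This gave 17 of the 19064 probe sets tested, for 8 of 11963 genes: 5 probe sets for CDH6, 3 for ZEB1, 2 each for CDH1, CDH2 and CDH11, and 1 each for SNAI2, TWIST1 and VIM. The probe sets of a gene are numbered by their mean signal, with 1 the brightest. RCC4 is an established cell line from a clear cell renal carcinoma that lacks a working VHL protein. The cells received a non-targeting siRNA (siNT) or an siRNA against TAZ, the coactivator of TEAD factors encoded by WWTR1 (siTAZ), for 2 days. They were then given the vehicle DMSO or erastin, an inhibitor of cystine uptake that triggers ferroptosis, at 1 µM for 7 hours. Each of the groups siNT vehicle, siNT erastin, siTAZ vehicle and siTAZ erastin holds 3 arrays of total RNA, which the submitters describe as biological triplicates. All groups carry an siRNA, so no untransfected cells serve as a reference, and 1 cell line stands for the tumour type.

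Cadherins are calcium-dependent adhesion proteins that link neighbouring cells and bind catenins inside the cell. In an epithelial to mesenchymal transition, factors of the Snail, ZEB and Twist families repress CDH1 (E-cadherin) and other epithelial genes through E-boxes, while CDH2 (N-cadherin) and vimentin become prominent. The tubule epithelium of the kidney differs from many epithelia in that its proximal part carries CDH2 and CDH6 (K-cadherin), and clear cell carcinoma is thought to arise there.

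The deposited values were log2 signals with array medians of 6.48 to 6.54. WWTR1 was lower with siTAZ on all of its 3 probe sets, by -2.94 ± 0.07 in vehicle and -3.12 ± 0.07 under erastin on the brightest (log2 difference ± SE). Of 10 renal and clear cell carcinoma markers measured, 7 had signals above those of all 17 markers of leukocytes, endothelium and erythroid cells, which averaged 2.64 to 6.43, with PAX8 at 10.6 and NNMT at 13.4. LRP2 at 2.83, CUBN at 4.46 and MME at 5.86, all markers of the proximal tubule brush border, were within that range. By the brightest probe set of each, none of the leukocyte, endothelial, erythroid or fibroblast markers passed the limma test with siTAZ in either medium. A dimmer probe set of the fibroblast marker THY1 passed as higher under erastin (0.42, adjusted p 0.0348). Of the 10 renal markers, 3 passed as higher and 2 as lower in each medium, where 26.9 and 26.4 percent of all genes passed. EPAS1 gave -1.38 in both media, ANGPTL4 -1.70 and -1.37, and CA12, among the higher, 0.52 and 0.76. The actin control of the arrays compares a probe set at the 3′ end of the transcript with one at the 5′ end, which tracks RNA integrity and the length of the copied RNA. Its 3′ minus 5′ difference was 2.68 ± 0.28 (SD, n = 3) in siNT vehicle, 2.26 ± 0.69 in siNT erastin, 2.65 ± 0.04 in siTAZ vehicle and 3.25 ± 0.33 in siTAZ erastin. One array stood apart, siNT erastin replicate 3 at 1.49, against 2.40 or more on every other array. The GAPDH control, built in the same way, was 0.07 to 0.28 over all arrays, also lowest on siNT erastin replicate 3. Its ranges under erastin overlapped, at 0.07 to 0.22 with siNT and 0.16 to 0.27 with siTAZ. Under erastin the actin control differed between the siRNAs. Values there are therefore in part also given without siNT erastin replicate 3 or with the actin difference as a covariate. The part of the actin control in those results was not tested.

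With TAZ silenced in vehicle, SNAI2, CDH2 and CDH6 rose, and none of the 8 genes was called lower in the main fit. A probe set is called when its adjusted p in limma (Benjamini-Hochberg over all probe sets tested) is under 0.05. By that rule 7 of 17 probe sets were higher with siTAZ in vehicle and 0 lower, beside 12.6 percent of all probe sets higher and 11.7 percent lower, 24.3 percent in all. The 5 CDH6 probe sets make up most of this count and share 1 gene. By the brightest probe set of each gene, 3 of 8 genes were called higher and 0 lower, beside 13.9 and 13 percent of all genes, 26.9 percent in all. Under erastin the counts were again 7 higher and 0 lower of 17, beside 13.1 and 11.5 percent of all probe sets, 24.6 percent in all. By gene they were 3 and 0 of 8, beside 14.6 and 11.8 percent, 26.4 percent in all. The median difference over the 17 probe sets was 0.07 in vehicle and 0.04 under erastin, against -0.01 and 0.00 over all probe sets. Arrays of the siRNAs did not overlap on 10 of 17 probe sets in vehicle and on 9 under erastin, where 41.2 and 36.2 percent of all probe sets did not overlap. Calls over all probe sets depend on scaling for the array as a whole. Centring each array on its median changed those under erastin from 2492 higher and 2197 lower to 1982 higher and 2789 lower. With that centring the 7 higher of 17 stayed 7 in both media, while 0 lower became 1 in vehicle and 2 under erastin. The 2 siTAZ comparisons use different arrays. As the RNA is from bulk cultures, fewer cells with a transcript cannot be told apart from less of it per cell.

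**Figure D1:**
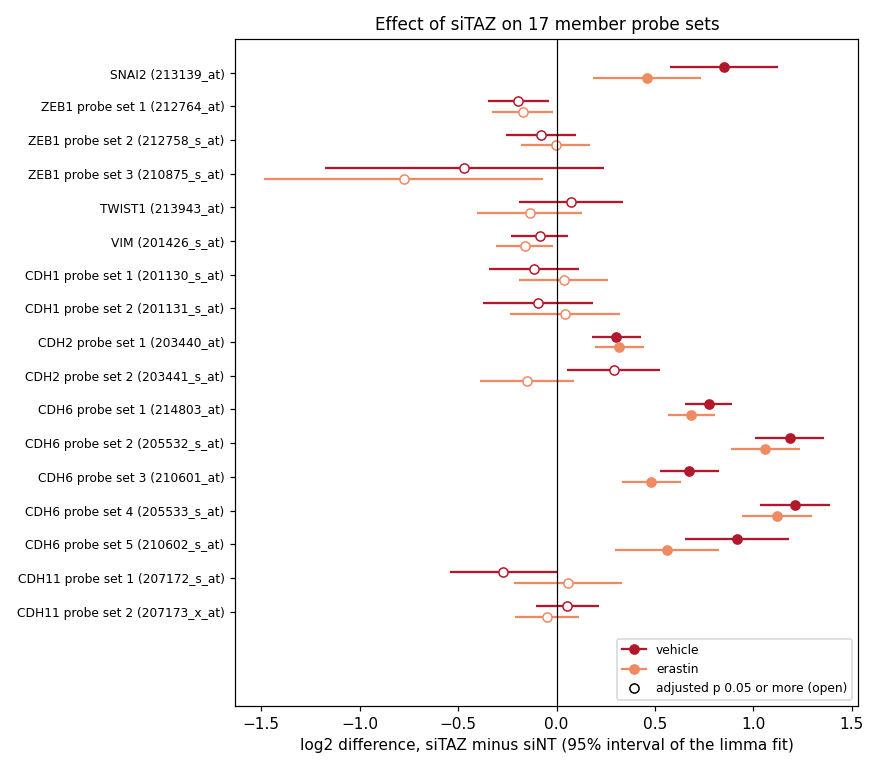
Differences in log2 signal between siTAZ and siNT (horizontal axis) for the 17 probe sets, in vehicle (dark red) and under erastin (orange), with the 95% interval of the limma fit; filled points passed an adjusted p of 0.05. SNAI2, CDH2 probe set 1 and all 5 CDH6 probe sets lie right of 0 in both media, from 0.30 to 1.21 in vehicle, while the points of the other genes are open.

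SNAI2 encodes Slug, a zinc finger repressor that binds E-boxes. Its probe set read 7.55, 7.46 and 7.16 on the siNT vehicle arrays and 8.13, 8.27 and 8.31 on the siTAZ vehicle arrays. All 3 siTAZ arrays were above all 3 siNT arrays. The log2 difference was 0.85 ± 0.13 (SE), a 1.80-fold rise with an adjusted p of 0.000315 in limma. The difference was larger in size than that of 98.2 percent of all probe sets. Under erastin SNAI2 read 7.40, 7.49 and 7.89 with siNT and 8.04, 7.98 and 8.14 with siTAZ. The groups again did not overlap, although siNT erastin replicate 3, at 7.89, came close to the lowest siTAZ array, at 7.98. The difference under erastin was 0.46 ± 0.13 (1.38-fold, adjusted p 0.0180). This call was lost without siNT erastin replicate 1 (0.36, adjusted p 0.0774), siNT erastin replicate 2 (0.41, 0.0600) or siTAZ erastin replicate 3 (0.42, 0.0651). Without siNT erastin replicate 3, the array with the low actin difference, it was 0.61 (adjusted p 0.00147), and with the actin difference as a covariate 0.83 ± 0.11 (adjusted p 0.000316).

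**Figure D2:**
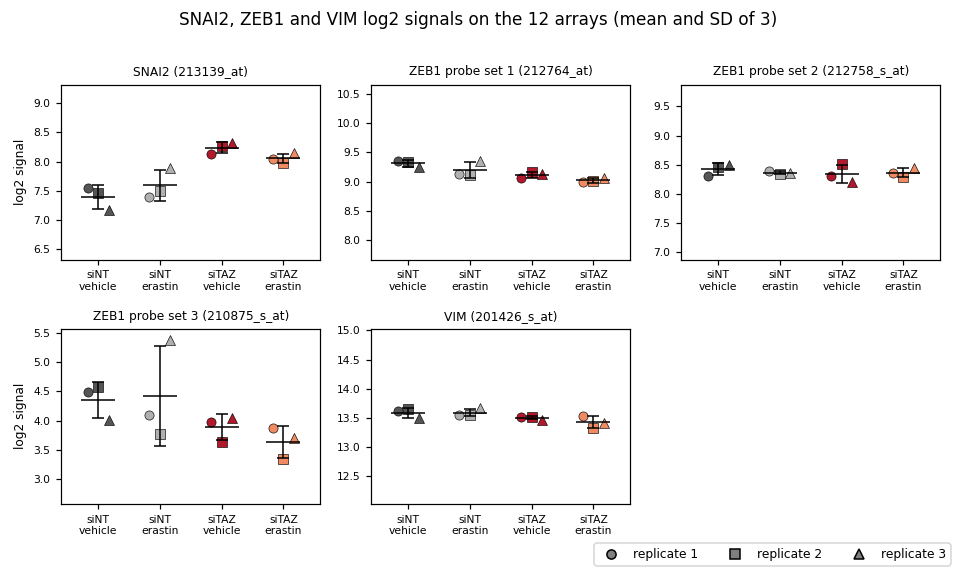
Log2 signals of SNAI2, the 3 ZEB1 probe sets and VIM on each of the 12 arrays by group, with the mean and SD of 3 arrays. Symbols mark replicate numbers, which the main fit did not use to link samples across groups. Every panel spans the same 3.0 log2 units. SNAI2 is at 7.16 to 7.89 with siNT and 7.98 to 8.31 with siTAZ, while VIM and ZEB1 probe sets 1 and 2 stay in narrow bands; ZEB1 probe set 3 reaches 5.39 on siNT erastin replicate 3.

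ZEB1, a zinc finger and homeodomain repressor of CDH1, did not pass the limma test on any of its 3 probe sets. Probe set 1 read 9.35, 9.33 and 9.25 in siNT vehicle, 9.06, 9.16 and 9.13 in siTAZ vehicle, 9.12, 9.10 and 9.35 in siNT erastin, and 8.98, 9.01 and 9.07 in siTAZ erastin. Every siTAZ array was below every siNT array of the same medium. The difference was -0.20 ± 0.07 in vehicle (adjusted p 0.0664) and -0.17 ± 0.07 under erastin (adjusted p 0.106). This probe set was close to the threshold, and 7 other settings called it lower in vehicle: median centring (adjusted p 0.0193), a second quantile normalisation (0.0271), leaving out dim probe sets (0.0430), trended robust variances (0.0294), array weights (0.00925), the actin covariate (0.0194) and a fit of these 2 groups alone (0.0444). Under erastin it was called with median centring (-0.21, adjusted p 0.0227) and quantile normalisation (-0.18, 0.0492), but was -0.09 without siNT erastin replicate 3 and -0.02 with the actin covariate. Probe set 2 gave -0.08 ± 0.08 in vehicle and -0.00 ± 0.08 under erastin, with groups that overlapped. The dim probe set 3 gave -0.47 ± 0.33 and -0.78 ± 0.33. The value under erastin rested on siNT erastin replicate 3, at 5.39 against 4.09 and 3.76 on the other siNT erastin arrays: without it the difference was -0.29. Without siNT erastin replicate 2 it was -1.10 (adjusted p 0.0236). With the actin covariate it was 0.24.

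TWIST1, a basic helix-loop-helix factor of mesoderm and neural crest, read 2.85 to 3.43 on all 12 arrays. Its single probe set gave 0.07 ± 0.12 in vehicle (adjusted p 0.739) and -0.14 ± 0.12 under erastin (adjusted p 0.502). Its signal lay within the range of the markers of other cell types given above, as did those of 6 of the 17 probe sets in all. The 6 are TWIST1, both CDH1 probe sets, both CDH11 probe sets and ZEB1 probe set 3. Probe sets respond differently to their targets, so this range shows only where signals of genes foreign to the line can lie, and differences at such levels may be understated.

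CDH6 was the cadherin with the largest differences. Probe set 1 of its 5 read 11.84, 11.93 and 11.79 in siNT vehicle and 12.63, 12.62 and 12.63 in siTAZ vehicle. Under erastin it read 11.88, 11.88 and 11.82 with siNT and 12.56, 12.57 and 12.50 with siTAZ. The lowest siTAZ array was above the highest siNT array on this and on the other 4 CDH6 probe sets, over both media. The difference was 0.77 ± 0.05 in vehicle (1.71-fold) and 0.68 ± 0.05 under erastin (1.61-fold).

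CDH6 probe set 4, which had the largest difference, read 8.07, 7.99 and 7.90 in siNT vehicle and 9.32, 9.14 and 9.14 in siTAZ vehicle. It rose 2.32-fold in vehicle and, from 7.94, 7.75 and 8.03 to 9.07, 8.98 and 9.01, 2.17-fold under erastin. The group means of probe set 2 went from 9.95 ± 0.10 (SD, n = 3) to 11.14 ± 0.12 in vehicle, and those of probe set 3 from 8.46 ± 0.09 to 9.13 ± 0.06. Over the 5 probe sets the difference ranged from 0.67 to 1.21 in vehicle (adjusted p from 6.25e-07 to 0.000128) and from 0.48 to 1.12 under erastin (adjusted p from 1.24e-06 to 0.0045). No array left out in turn ended any of these calls. Probe set 5 read 7.18, 7.27 and 7.09 in siNT vehicle, 8.14, 8.04 and 8.12 in siTAZ vehicle, 7.16, 7.14 and 7.62 in siNT erastin, and 8.05, 7.72 and 7.84 in siTAZ erastin. Of its siNT arrays, the highest was siNT erastin replicate 3. Its difference was 0.92 ± 0.12 in vehicle and 0.56 ± 0.12 under erastin, the latter 0.92 ± 0.10 with the actin covariate.

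CDH2 rose on 1 of its 2 probe sets. Probe set 1 read 11.89, 11.84 and 11.83 in siNT vehicle and 12.15, 12.08 and 12.24 in siTAZ vehicle. Under erastin it read 11.92, 11.83 and 11.82 with siNT and 12.14, 12.20 and 12.18 with siTAZ. The siRNAs did not overlap in either medium. The difference was 0.30 ± 0.06 in vehicle (1.23-fold, adjusted p 0.00176) and 0.32 ± 0.06 under erastin (1.25-fold, adjusted p 0.00132), and both calls held with each array left out.

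CDH2 probe set 2 did not show this pattern under erastin. It read 8.96, 9.04 and 8.71 in siNT vehicle and 9.24, 9.18 and 9.17 in siTAZ vehicle, a difference of 0.29 ± 0.11 (adjusted p 0.0768). The groups in vehicle did not overlap, and 4 settings called it higher there: trended robust variances (adjusted p 0.0298), array weights (0.0404), the actin covariate (0.00720) and a fit of these 2 groups alone (0.0414). Under erastin it read 8.97, 8.98 and 9.30 with siNT and 9.03, 8.76 and 9.01 with siTAZ, a difference of -0.15 ± 0.11 (adjusted p 0.388) from overlapping groups. The highest and the lowest of these arrays were also the arrays with the lowest and the highest actin difference under erastin, siNT erastin replicate 3 and siTAZ erastin replicate 2. The difference was -0.04 without siNT erastin replicate 3 and 0.17 with the actin covariate. With the mean of both probe sets in place of each, CDH2 gave 0.08 under erastin (adjusted p 0.403).

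**Figure D3:**
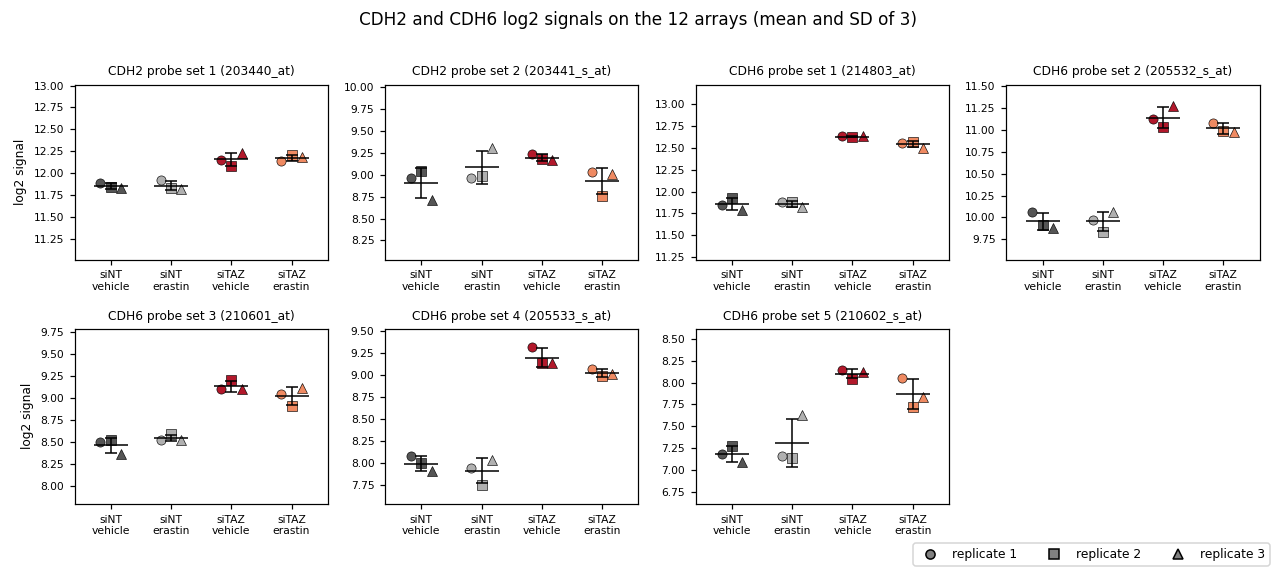
Log2 signals of the 2 CDH2 and 5 CDH6 probe sets on each array by group, with the mean and SD of 3 arrays; symbols mark replicate numbers and all panels span the same range of log2 units. On every CDH6 panel and on CDH2 probe set 1 the 6 siTAZ arrays lie above the 6 siNT arrays, whereas on CDH2 probe set 2 they mix under erastin.

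CDH1 and CDH11 were at low signals in all groups. CDH1 probe set 1 read 3.47, 2.97 and 3.41 in siNT vehicle and 3.16, 3.21 and 3.15 in siTAZ vehicle. The difference was -0.11 ± 0.10 (adjusted p 0.510) from overlapping groups, and without siNT vehicle replicate 2, the lowest of those arrays, it was called at -0.27 (adjusted p 0.00780). Under erastin it was 0.04 ± 0.10, and the second CDH1 probe set gave -0.09 ± 0.13 in vehicle and 0.04 ± 0.13 under erastin. CDH11, a type II cadherin of mesenchyme and osteoblasts, read 5.49, 5.57 and 5.48 in siNT vehicle and 5.16, 5.22 and 5.35 in siTAZ vehicle on probe set 1. These groups did not overlap, but the difference of -0.27 ± 0.12 missed the threshold (adjusted p 0.151) and passed it only in a fit of these 2 groups alone (adjusted p 0.0189). Under erastin the same probe set gave 0.06 ± 0.12, which turned to -0.04 without siNT erastin replicate 3 and to -0.22 with the actin covariate, and its second probe set gave 0.06 ± 0.07 and -0.05 ± 0.07. The intervals of the CDH1 differences in vehicle reached from -0.34 to 0.11 and from -0.37 to 0.19 (95% intervals of the fit), so no rise of CDH1 signal with siTAZ was detected.

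VIM encodes vimentin, the main intermediate filament of mesenchymal cells. Its probe set read 13.62, 13.65 and 13.50 in siNT vehicle and 13.52, 13.52 and 13.47 in siTAZ vehicle, a difference of -0.09 ± 0.07 (adjusted p 0.425) from overlapping groups. Under erastin it read 13.56, 13.55 and 13.67 with siNT and 13.53, 13.34 and 13.42 with siTAZ. Here the groups did not overlap, with a difference of -0.16 ± 0.07 (adjusted p 0.104). It was called with median centring (-0.20, adjusted p 0.0318) and with trended robust variances (adjusted p 0.0161), and was -0.03 with the actin covariate. Its mean signal was above that of 99.7 percent of probe sets, near the top of the array's scale, where differences can be compressed.

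Erastin had no called effect on any of the 17 probe sets. In siNT cells 0 of 17 were called, beside 0.372 percent of all probe sets, and in siTAZ cells 0 of 17, beside 0.294 percent (0.0315 percent lower, and 0.0334 percent of genes lower). At an unadjusted p under 0.05 in limma, 0 of 17 passed in siNT and 1 in siTAZ, against 8.82 and 9.04 percent of all probe sets. The 1 was CDH2 probe set 2, at -0.26 ± 0.11 (adjusted p 0.525). SNAI2 was 0.20 ± 0.13 in siNT and -0.18 ± 0.13 in siTAZ, neither called, and the brightest CDH6 probe set 0.00 ± 0.05 and -0.09 ± 0.05. On 1 probe set in siNT (CDH6 probe set 3, higher) and on 3 in siTAZ (CDH2 probe set 2, CDH6 probe set 1 and CDH6 probe set 4, lower) the arrays of both media did not overlap, beside 13 and 19.7 percent of all probe sets. These counts do not exceed what all probe sets show.

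The effect of siTAZ was not shown to differ between vehicle and erastin for any of the genes. The interaction, the difference under erastin minus that in vehicle, was called for 0 of 17 probe sets and for 0 percent of all probe sets in limma. At an unadjusted p under 0.05 there was 1 of 17, against 6.10 percent of all probe sets. Over all probe sets other settings of the same tool called a few: 3 with quantile normalisation, 8 higher and 2 lower with trended robust variances, 4 with array weights and 1 without siNT erastin replicate 3, none of them among the 17. The 1 was again CDH2 probe set 2 at -0.44 ± 0.15 (adjusted p 0.799), or -0.11 with the actin covariate. For SNAI2 the interaction was -0.39 ± 0.18 (unadjusted p 0.0506, adjusted p 0.799), with a 95% interval from -0.78 to 0.00. It was -0.24 without siNT erastin replicate 3 and -0.00 with the actin covariate. For CDH6 probe set 5 it was -0.36 ± 0.17, or 0.01 with that covariate. For the brightest CDH6 and CDH2 probe sets the intervals were narrower, from -0.25 to 0.08 and from -0.16 to 0.19.

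**Figure D4:**
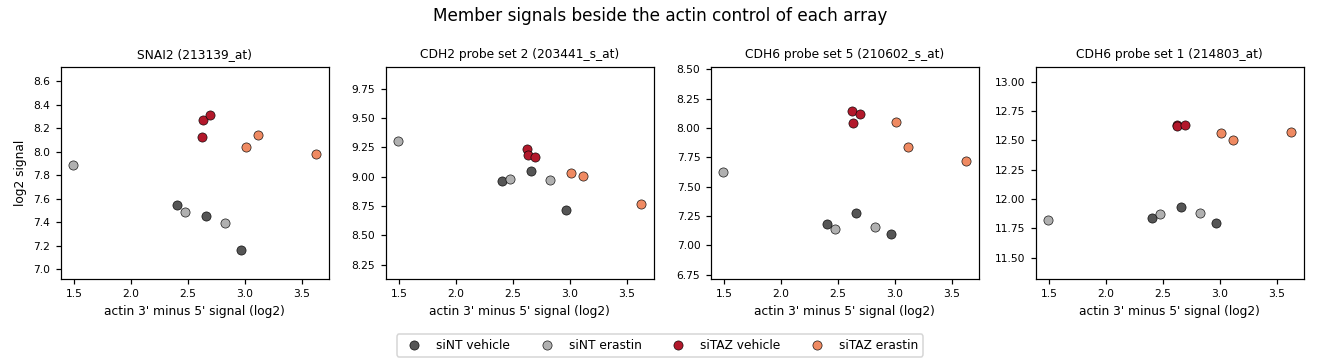
Log2 signals of SNAI2, CDH2 probe set 2, CDH6 probe set 5 and CDH6 probe set 1 (vertical axes) against the actin 3′ minus 5′ difference of the same array in log2 units (horizontal axes), coloured by group. siNT erastin replicate 3 lies far to the left at 1.49 and is the highest siNT array on the first 3 panels but not on the fourth, where the siNT arrays stay between 11.79 and 11.93.

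With both media combined, 6 siTAZ arrays were set against 6 siNT arrays by a two-sided exact permutation test, adjusted over all probe sets. By this test 7 of the 17 probe sets were higher and 2 lower, beside 16.5 and 15.2 percent of all probe sets, 31.7 percent in all. SNAI2, CDH2 probe set 1 and the 5 CDH6 probe sets reached the smallest p the design allows (exact p 0.002165, adjusted 0.0101). On these every siTAZ array was above every siNT array. Such an adjusted p arises only where many of all probe sets share this smallest p, so reaching it is not particular to these genes. The share of all probe sets that reached it was not counted. SNAI2 differed by 0.65 and CDH6 by 0.58 to 1.16. The lower probe sets were ZEB1 probe set 1 (-0.18, exact p 0.0152, adjusted 0.0478) and VIM (-0.12, exact p 0.0130, adjusted 0.0420). Neither held without siNT erastin replicate 3 (adjusted 0.0631 and 0.0779), and VIM did not hold after quantile normalisation (adjusted 0.0772).

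Of the 8 genes, the RefSeq promoter table for GRCh38.p14 matched 3: ZEB1 with 7 transcript starts, VIM with 1 and CDH2 with 2. The 250 bases before each start were searched on both strands for the E-box CACCTG, which reads CAGGTG on the opposite strand and is bound by Snail and ZEB factors. They were also searched for GGAATG, whose opposite strand reads CATTCC, the core of TEAD sites through which TAZ acts. Over 35116 such windows of all genes, 17.5 percent held the E-box and 11.9 percent the TEAD core. Of the 7 ZEB1 windows 2 held the E-box, and the VIM window and both CDH2 windows held none. None of the 10 windows held the TEAD core, which says only that these letters are not in these windows. As only these 3 genes matched, the window of the most upstream start of each is printed 5′ to 3′ on the strand of the gene. Of them, ZEB1 was near the threshold, VIM was not called and CDH2 rose on 1 of its 2 probe sets. Capitals mark the E-box, read as CAGGTG 57 bases before the ZEB1 start. The windows are chr10:31318167-31318416 (plus strand) for ZEB1, chr10:17227991-17228240 (plus strand) for VIM and chr18:28177131-28177380 (minus strand) for CDH2.
ZEB1: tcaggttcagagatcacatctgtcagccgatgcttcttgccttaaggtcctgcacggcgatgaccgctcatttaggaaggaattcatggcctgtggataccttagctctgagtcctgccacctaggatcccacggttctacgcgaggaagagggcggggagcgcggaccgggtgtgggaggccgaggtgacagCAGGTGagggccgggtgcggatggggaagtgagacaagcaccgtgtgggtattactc
VIM: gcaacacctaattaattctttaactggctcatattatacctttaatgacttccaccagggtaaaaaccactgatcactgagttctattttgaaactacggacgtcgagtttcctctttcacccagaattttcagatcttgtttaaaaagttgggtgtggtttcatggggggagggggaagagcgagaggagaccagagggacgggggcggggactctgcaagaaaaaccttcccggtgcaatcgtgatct
CDH2: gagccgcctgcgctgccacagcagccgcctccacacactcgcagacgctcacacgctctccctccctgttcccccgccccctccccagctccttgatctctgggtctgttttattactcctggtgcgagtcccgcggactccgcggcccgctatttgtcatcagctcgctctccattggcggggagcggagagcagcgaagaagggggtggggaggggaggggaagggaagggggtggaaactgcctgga

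Other transcription factors of the transition moved in both directions. Of 15 listed, 11 were measured, and in vehicle 4 rose, 3 fell and 4 were not called, beside 13.9 and 13 percent of all genes. The median difference of the list was 0.06, against -0.01 over all genes. TCF4, an E-protein that represses CDH1, rose by 1.10 ± 0.12 (2.14-fold), with all of its 7 probe sets called. It read 7.69, 7.99 and 7.85 in siNT vehicle and 8.96, 8.90 and 8.96 in siTAZ vehicle. ZEB2, the paralogue of ZEB1, rose by 0.87 ± 0.19 (1.83-fold), from 7.63, 7.56 and 7.30 to 8.66, 8.27 and 8.19. ETS1 fell by 0.62 and SOX9 rose by 0.54. The 3 siTAZ arrays were outside the siNT range for TCF4 and ZEB2. SNAI1, the closest relative of SNAI2, was at a mean of 4.88 and gave 0.04 ± 0.09 (adjusted p 0.827). TCF3 fell by 0.41 on its brightest probe set, while none of its other 12 was called.

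Under erastin 4 of the 11 rose and 2 fell, beside 14.6 and 11.8 percent of all genes, with a median of 0.17 against 0.01. TCF4 rose by 1.21 and ETS1 fell by 0.88. ZEB2 gave 0.58 (adjusted p 0.0403), a call lost with median centring (adjusted p 0.0546) and without siNT erastin replicate 1 (0.0703) or 2 (0.137), or siTAZ erastin replicate 1 (0.133) or 2 (0.0962). With the actin covariate it was 0.92.

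Among the other cadherins, 14 of 17 listed were measured, and CDH16 was the 1 gene called by its brightest probe set in either medium, beside 26.9 and 26.4 percent of all genes. The dimmer of the probe sets of CDH15, a muscle cadherin, was also lower in vehicle (-0.37, adjusted p 0.00515), while the brighter gave 0.06, not called. CDH16, a kidney cadherin (Ksp-cadherin), rose by 0.62 ± 0.08 in vehicle (1.54-fold, adjusted p 9.5e-05) and by 0.44 ± 0.08 under erastin (adjusted p 0.00127). The CDH16 call under erastin was lost with the actin covariate (0.31, adjusted p 0.0570). The medians of this list were -0.01 and 0.02. Of the catenins and other junction partners 13 of 14 were measured, with 3 higher and 3 lower in vehicle and 2 higher and 1 lower under erastin, and medians of -0.01 and -0.04. Among all genes 13.9 percent were higher and 13 percent lower in vehicle, and 14.6 and 11.8 percent under erastin. Plakoglobin (JUP), which can replace beta-catenin on cadherin tails, rose by 0.43 and 0.46, and NECTIN2, an immunoglobulin-like adhesion receptor, by 0.38 and 0.41. NECTIN3 rose by 0.38 in vehicle and gave 0.10 under erastin, not called, or 0.30 (adjusted p 0.0209) with the actin covariate. The scaffold IQGAP1 fell by 0.23 and 0.20, the latter not called in a fit of these 2 groups alone (adjusted p 0.0572). The dimmer IQGAP1 probe sets were not called in vehicle, and 1 of them was lower under erastin (-0.26, adjusted p 0.0415). Beta-catenin (CTNNB1) and alpha-catenin (CTNNA1) were not called by their brightest probe sets, at 0.03 and -0.01 in vehicle. Of the dimmer CTNNA1 probe sets, 1 was lower under erastin (-0.22, adjusted p 0.0358) and the others were not called. The lower count in vehicle went from 3 to 1 when siNT vehicle replicate 3 or either of siTAZ vehicle replicates 1 and 3 was left out, as 2 of the 3 were dim nervous system catenins, CTNNA2 and CTNND2, at -0.25 each.

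Of the enzymes that cleave cadherins, 11 of 12 listed were measured, with 2 higher and 3 lower in vehicle, 4 higher and 2 lower under erastin, and medians of 0.02 and 0.10. Beside these stand 13.9 percent of all genes higher and 13 percent lower in vehicle, and 14.6 and 11.8 percent under erastin. ADAM10, the main sheddase of CDH1 and CDH2, fell by 0.46 ± 0.06 in vehicle (1.37-fold) and by 0.49 ± 0.06 under erastin, and 1 of its other 2 probe sets fell in both media. The matrix metalloproteinase MMP7 gave 0.27 in vehicle, not called, and rose by 0.58 under erastin (0.39, adjusted p 0.0970, with the actin covariate). The other calls in vehicle, of gamma-secretase parts and ADAM17, were between -0.21 and 0.22. With the actin covariate the counts under erastin went from 4 to 1 higher and from 2 to 1 lower, as ADAM17 (adjusted p 0.119), NCSTN (0.0597) and APH1A (0.338) also lost their calls. In vehicle the higher count was 1 with median centring or quantile normalisation. Without an array of vehicle the count fell to 0 or 1 higher (siNT vehicle replicate 1 or 2, or any siTAZ vehicle array) and to 1 lower (siNT vehicle replicate 1 or any siTAZ vehicle array). Under erastin the lower count was 1 without siNT erastin replicate 1 or 3, or siTAZ erastin replicate 1 or 2.

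All 12 of the other intermediate filament genes listed were measured, with 2 higher and 2 lower in both media and medians of -0.05 and 0.02. The shares of all genes were 13.9 percent higher and 13 percent lower in vehicle, and 14.6 and 11.8 percent under erastin. Synemin (SYNM), which assembles only with other filament proteins such as vimentin, rose by 0.52 in vehicle and 0.62 under erastin. Of the neurofilaments, NEFL rose by 0.50 and 0.45 and NEFM fell by 0.49 and 0.34. Lamin A (LMNA) gave -0.23 and -0.20 on its brightest probe set, while none of its other 3 was called. That call, and with it the lower count of 2, did not survive leaving out siNT vehicle replicate 1, siNT vehicle replicate 2 or any of the siTAZ vehicle arrays. Under erastin it did not survive leaving out siNT erastin replicate 1 or 2 or siTAZ erastin replicate 1 or 2.

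Of 15 epithelial transcription factors and splicing regulators listed, 11 were measured, and 2 rose and 1 fell in both media. This is near the share of all genes called, 26.9 percent in vehicle and 26.4 percent under erastin. The list had medians of -0.01 and -0.00. ELF3, an epithelial ETS factor, rose by 1.77 ± 0.06 in vehicle (3.41-fold, adjusted p 6.05e-09) and by 1.58 ± 0.06 under erastin. KLF4 fell by 0.81 and 0.98, and KLF5 rose by 0.37 and 0.53. The dimmer KLF4 probe set gave -0.26 and -0.25, not called. GRHL2, OVOL1, OVOL2 and ESRP1, factors that hold the epithelial state, were not called, with differences from -0.07 to 0.05 in the 2 comparisons. Their mean signals of 3.52, 5.51, 3.59 and 4.35 lay within the range of the markers of other cell types, 2.64 to 6.43. Differences at such levels may be understated.

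Of the genes that ZEB and Snail factors are known to repress, 18 of 20 were measured, with 3 higher and 3 lower in both media and medians of 0.06 and 0.01. EPCAM, an adhesion molecule of epithelia, rose by 0.73 ± 0.14 in vehicle and 0.60 ± 0.14 under erastin, or 0.95 there with the actin covariate. Keratin KRT19 rose by 0.58 and 0.54. Keratin KRT18 fell by 1.06 ± 0.06 (2.09-fold) and 1.01, and the tight junction claudin CLDN4 fell by 0.85 and 1.04. These counts are near the shares of all genes, 13.9 percent higher and 13 percent lower in vehicle and 14.6 and 11.8 percent under erastin. Of 12 corepressors and chromatin partners 10 were measured, with 3 higher and 1 lower in vehicle and 2 higher and 1 lower under erastin, beside those same shares of all genes. Their medians were 0.05 and 0.10. RCOR1, the CoREST scaffold that SNAI1 uses to recruit a demethylase, fell by 0.50 in vehicle and 0.69 under erastin (-0.39, adjusted p 0.0766, with the actin covariate, which left 0 lower there). CTBP1, a corepressor of ZEB factors, rose by 0.37 in vehicle. The higher count of corepressors was 1 without siTAZ vehicle replicate 1 or 3 or any siNT vehicle array, and 0 under erastin without siNT erastin replicate 1 or 2 or any siTAZ erastin array. It was also 1 in vehicle and 0 under erastin with median centring.

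TGF-beta signalling, an inducer of SNAI2 and ZEB1 in many epithelia, was covered by 19 of 20 genes listed, with 2 higher and 4 lower in vehicle, 3 higher and 4 lower under erastin, and medians of -0.04 and -0.07. For all genes the shares were 13.9 percent higher and 13 percent lower in vehicle, and 14.6 and 11.8 percent under erastin. The co-receptor TGFBR3 rose by 1.13 ± 0.10 (2.19-fold) and 1.40 ± 0.10, and the inhibitor of E-proteins ID3 by 1.04 ± 0.10 (2.06-fold) and 1.02. SMAD3, a signal transducer, fell by 0.71 on its brightest probe set, but another of its 4 probe sets rose by 0.23. SMAD4, the common partner of the receptor SMADs, gave -0.27 in vehicle, not called, and -0.72 under erastin (-0.25, adjusted p 0.219, with the actin covariate). The type II receptor TGFBR2 fell by 0.35 under erastin and was -0.22 (adjusted p 0.127) with that covariate, which took the lower count there from 4 to 2. SMURF2, a ligase that degrades pathway members, fell by 0.38 and 0.33.

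All 18 mesenchymal effector genes listed were measured, with 4 higher and 2 lower in vehicle, 5 higher and 2 lower under erastin, and medians of -0.05 and 0.13. Over all genes 13.9 percent were higher and 13 percent lower in vehicle, and 14.6 and 11.8 percent under erastin. Fibronectin (FN1) rose by 0.92 ± 0.06 (1.89-fold) and 0.86 ± 0.06, with all of its 6 probe sets called. SERPINE2, a secreted protease inhibitor, rose by 0.46 and 0.36, and the fibronectin receptor subunit ITGA5 by 0.36 and 0.33 (0.20, adjusted p 0.190, with the actin covariate under erastin). The matrix protein SPARC gave 0.44 under erastin (adjusted p 0.0149) and 0.37 (0.162) with that covariate, which took the higher count from 5 to 3. LOX, which cross-links collagen, rose by 0.34 and 0.27 on its brightest probe set. Its other probe sets were not called, the brighter of them at 0.04 and 0.17 (adjusted p 0.671 and 0.0505 in limma). The hyaluronan receptor CD44 fell by 0.33 and 0.46, and the receptor kinase AXL by 0.30 and 0.26. The AXL call under erastin was lost without siNT erastin replicate 1 (adjusted p 0.0656) or 2 (0.0507), which took the lower count to 1. The collagens COL1A1, COL1A2 and COL3A1 were not called, at -0.10 to 0.12.

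**Figure D5:**
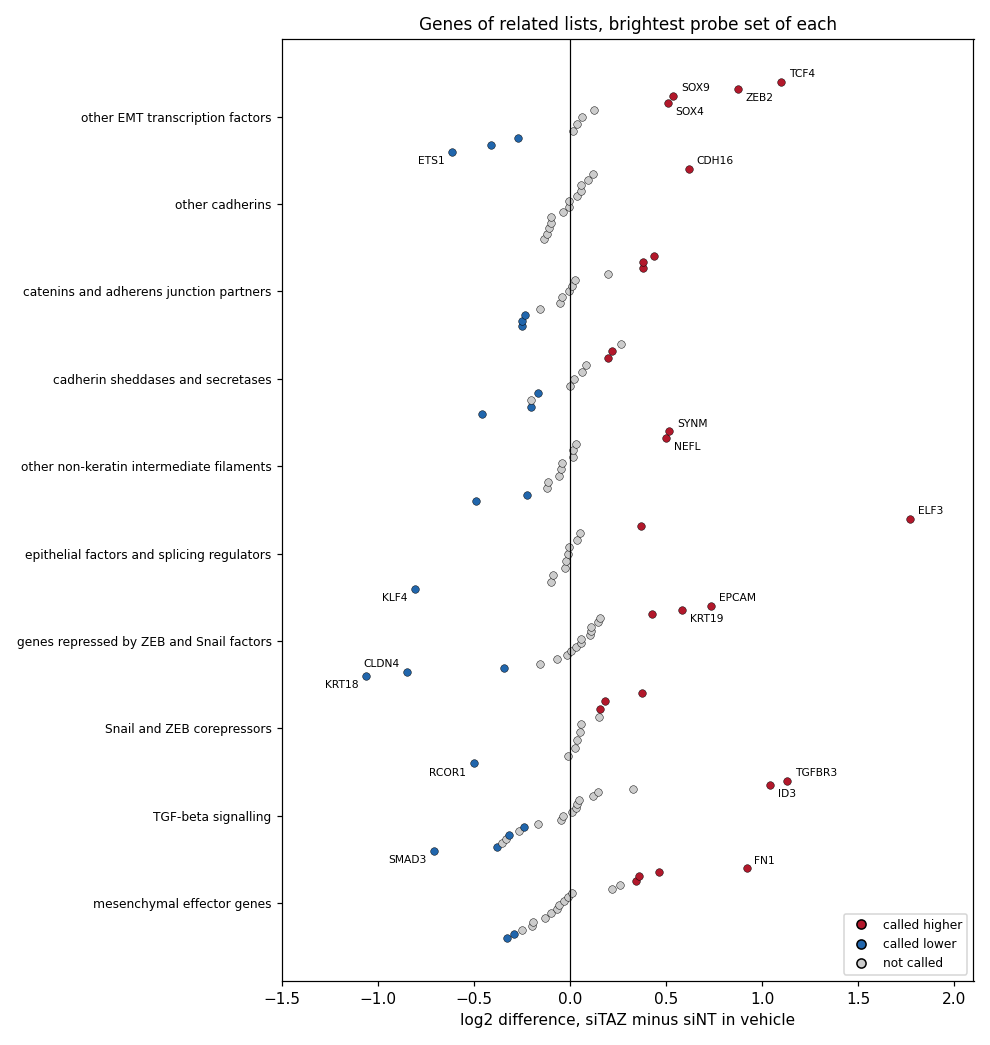
Differences in log2 signal between siTAZ and siNT in vehicle (horizontal axis) for the measured genes of the 10 lists (vertical axis), each by its brightest probe set; red was called higher, blue lower and grey not called, and called genes with a difference of at least 0.5 in size are named. ELF3 lies farthest right at 1.77 and KRT18 farthest left at -1.06, and 9 of the 10 lists hold called genes on both sides of 0.

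The genes with the array profile nearest to each member called in vehicle were found among 11962 genes as those with the smallest root mean square difference of log2 signals over the 12 arrays, after centring each gene. For SNAI2 they were ATP10D (0.079), BACH1 (0.084) and TMEM135 (0.094), for CDH2 probe set 1 MBD1 (0.039), ARL6IP5 (0.041) and RBPMS (0.042), and for CDH6 probe set 1 NHERF1 (0.042), ZNF91 (0.053) and RDX (0.054). The median over all genes compared was 0.399, 0.204 and 0.388. This is a description of 12 arrays that share 4 groups. BACH1, for example, rose by 0.84 in vehicle and 0.50 under erastin. Its closeness to SNAI2 in both follows from how it was picked.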

How the data were processed

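The authors deposited log2 probe set signals of 12 Affymetrix arrays. The submitters' processing notes name Affymetrix Expression Console and RMA, a method that corrects background, quantile-normalises and summarises probes; no versions were found there. A transformation against the siNT mean, which the design text mentions, was not seen in the values. Of 22277 probe sets, 62 controls, 1043 with several genes and 2108 with none in GEO's annotation were left out, and 19064 were tested with limma 3.58.1 in R 4.3.3 (lmFit with 4 group means, eBayes, 8 residual and 4.12 prior degrees of freedom), with Benjamini-Hochberg adjustment over all of them and no filter on low signals. Every probe set of the 8 genes was tested on its own. A gene of a list stands by its brightest probe set. The number of arrays limits the precision. An exact permutation test of 3 arrays against 3 cannot go below 0.1, so it was run on 6 against 6. It was planned with adjustment over the 17 probe sets, and adjustment over all probe sets was used instead.

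Members and lists were chosen with earlier results of these data known. From each list up to 4 genes with the largest called difference in vehicle, up to 2 more under erastin and up to 3 uncalled genes were named, with further genes named where a count or a changed call turned on them, after their values were seen; so was 1 uncalled epithelial factor beyond that limit. Alternatives were median centring, a second quantile normalisation, leaving out dim probe sets, 1 probe set per gene, trended robust variances, array weights, the actin covariate, a replicate block, 2 groups alone, a size threshold and leaving out each array. The mean of probe sets and alternatives to the permutation test were added after seeing the data. The code was tested on simulated data.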

Additional observations from a re-analysis of the deposited data

How the results depend on the processing

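Of the single differences of the 17 probe sets recomputed under the alternatives, 911 kept their status, 11 lost a call, 18 gained one and 0 reversed. The 911 include differences called in neither fit, so they are not a count of calls that held. Limma fits with an array left out entered only where that fit or the main fit made a call. The count of 7 higher in vehicle was 3 with the brightest probe set of each gene alone or with the mean of probe sets, which leave 8 genes to count. The count of 0 lower in vehicle was 1 with median centring, quantile normalisation, probe sets under the 25th percentile left out, trended robust variances, array weights or the actin covariate, and 2 in the fit of 2 groups alone. Under erastin, 7 higher became 3 with the brightest probe set alone, 4 with a log2 difference of at least 0.5 in addition and 2 with the mean of probe sets, and 0 lower became 2 with median centring and 1 with quantile normalisation or trended robust variances. With each array left out, the counts ranged from 7 to 7 higher and 0 to 1 lower in vehicle, and from 6 to 7 higher and 0 to 1 lower under erastin, and stayed at 0 for both erastin comparisons and the interaction. The 2 lower calls of the permutation test became 1 with quantile normalisation and 0 without siNT erastin replicate 3, with 7 higher in each. Fewer features tested or fewer arrays enter some of these by construction, and otherwise the cause was not tested. Same-numbered arrays did not deviate together more than others. Their correlations were -0.43 to 0.36 over 18 pairs of arrays, 4 of them above 0.1. Over 36 pairs with other numbers they were -0.45 to 0.34, with 14 above 0.1. With 3 arrays a group this cannot exclude a pairing, and the main fit treated the samples as unpaired. With the replicate number as a block, the member counts stayed at 7 higher and 0 lower in both siTAZ comparisons, while calls over all probe sets in vehicle went from 2397 to 2197 higher and from 2231 to 1995 lower. Dim signals limit what can be said of TWIST1, CDH1 and CDH11, and of the listed factors GRHL2, OVOL1, OVOL2 and ESRP1.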
